A study of Mus musculus with 8 samples.

Results

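The 39 genes described here encode the machinery that copies DNA and the regulators that switch it on: the sliding clamp and its loader, the replicative polymerases and primase, the helicase activators, the nucleases and ligase that finish new strands, the single-strand binding protein RPA, enzymes of deoxynucleotide supply, histone supply and chromatin assembly factors, 3 E2F transcription factors, and Dtl and Brca1, which act in replication control and repair. They were chosen by name, with earlier results of these data known, as the rows of the deposited count table whose Ensembl identifiers map to the listed mouse symbols. All 39 were found among the 54838 genes of the table, and all 39 passed the filter on low counts.

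Cells of mouse origin and male sex were used, induced pluripotent stem cells by the growth protocol, which the sample titles call ESC. The same protocol names 2 independent clones of reprogrammed cells as the biological replicates. The 4 states of 2 libraries each shared their culture with serum, LIF and inhibitors of MEK and GSK3 on irradiated feeder cells. Asynchronous cells (ASYN) received no nocodazole. For the other states the cells were moved to gelatin, treated with nocodazole, a drug that blocks spindle assembly, at 200 ng/ml for 6 h and collected by mitotic shake-off, and they were then taken at once (mitotic, MIT), 1 h after release (early G1) or 3 h after release (late G1). Cell cycle state, nocodazole and the move to gelatin therefore cannot be told apart in any comparison with asynchronous cells. With 2 libraries a state, every p-value below measures the spread between these libraries only.

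Replication genes are a textbook set of E2F targets. In G1, cyclin-dependent kinases phosphorylate the retinoblastoma proteins, activating E2F factors are freed, and genes for origin licensing, DNA synthesis and nucleotide supply are transcribed ahead of S phase. The atypical factors E2F7 and E2F8, themselves E2F targets, later repress the same promoters. Pluripotent stem cells of the mouse are known for a short G1 phase and for high CDK2 activity through much of the cycle.

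Promoter sequences are shown for 4 of the 6 genes that were higher in late G1 than in mitotic cells (Dtl, E2f8, Rrm2 and Slbp), as examples with and without E2F-type letters before the start. Each run holds the 250 bases before the RefSeq transcription start (GRCm38.p6), 5′ to 3′ on the strand of the gene, and capitals mark E2F-type letters of 7 bases, in either orientation: TTTCCCGC, TTTCGCGC, TTTGCCGC or TTTGGCGC, each without its first T. The Dtl run lies at chr1:191575545-191575794 on the minus strand and holds a match that ends at its last base. The E2f8 run lies at chr7:48881597-48881846 on the minus strand. The Rrm2 run lies at chr12:24708004-24708253 on the plus strand, and its match reads on the other strand. The Slbp run lies at chr5:33652575-33652824 on the minus strand and holds none of these letters.
Dtl: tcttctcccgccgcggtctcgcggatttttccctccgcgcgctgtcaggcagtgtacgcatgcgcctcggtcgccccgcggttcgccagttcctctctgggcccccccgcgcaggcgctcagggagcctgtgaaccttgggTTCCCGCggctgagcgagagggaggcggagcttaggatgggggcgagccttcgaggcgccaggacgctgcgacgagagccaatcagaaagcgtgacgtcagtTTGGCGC
E2f8: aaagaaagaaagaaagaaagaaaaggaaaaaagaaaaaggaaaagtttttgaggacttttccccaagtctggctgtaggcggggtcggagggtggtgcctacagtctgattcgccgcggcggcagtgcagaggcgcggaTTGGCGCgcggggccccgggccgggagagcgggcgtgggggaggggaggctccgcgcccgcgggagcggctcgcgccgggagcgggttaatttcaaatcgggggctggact
Rrm2: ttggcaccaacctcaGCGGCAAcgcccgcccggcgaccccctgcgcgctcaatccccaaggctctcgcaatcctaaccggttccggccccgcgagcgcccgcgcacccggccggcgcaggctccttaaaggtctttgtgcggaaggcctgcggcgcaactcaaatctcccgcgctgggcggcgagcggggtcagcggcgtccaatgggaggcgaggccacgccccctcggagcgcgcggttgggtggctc
Slbp: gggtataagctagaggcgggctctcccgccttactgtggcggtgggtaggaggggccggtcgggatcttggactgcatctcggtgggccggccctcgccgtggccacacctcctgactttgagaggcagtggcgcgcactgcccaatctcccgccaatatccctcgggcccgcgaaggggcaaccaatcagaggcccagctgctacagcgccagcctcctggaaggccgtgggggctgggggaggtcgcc

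The RefSeq table held a promoter window for 32 of the 39 members; Pole, Exo1, Gins1, Gins2, Gins4, Prim2 and Rfc2 had none. Over the whole window of 300 bases, which runs to 50 bases past the start, 21 of the 32 members (65.6%) held at least 1 of the 7-letter forms, against 18.4% of the 12247 tested genes in the table and 9.57% of all 32851 windows. Apart from matches at -227 in Chaf1b, at -169, -138 and -121 in Pola1 and at -235 in Rrm2, the matches began between -111 (E2f8) and +43 (Lig1), counted from the start at +1. The stricter forms of 8 letters, with that T, each of which contains a 7-letter form, were in 9 of 32 members (28.1%), 4.43% of tested genes and 2.26% of windows. The shorter forms were added after the result with the 8-letter forms had been seen. Cell cycle homology letters (TTTGAA, or the palindrome TTCGAA, both strands), known from promoters of mitotic genes, were in 7 of 32 members (21.9%) against 16.4% of tested genes. Of the 6 members higher in late G1 than in mitotic cells, 5 held a 7-letter form, which for E2f2 began at +41 and for Rfc3 at -9 and +1. Of the 26 members not called in that comparison 16 (61.5%) held one too. These matches describe letters and were not tested as binding sites.

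Total counts ran from 20410621 to 25615244 per library, and levels are given as CPM, the count relative to the TMM-scaled library total, replicate 1 first. Replicate 1 of the asynchronous and of the mitotic cells stood apart from the other libraries. Their deviations from replicate 2 correlated with r = 0.621 across 12037 genes and r = 0.581 across the 39 members, which share libraries and are not independent, whereas the other 5 pairs of states had r from -0.365 to 0.0572 across genes. Eif2s3y, a Y-linked gene, was at 91.6 and 82.0 CPM in these 2 libraries and between 28.4 and 32.5 CPM in the other 6. The spread between replicates, as edgeR's biological coefficient of variation, was 0.292 for asynchronous and 0.183 for mitotic libraries but 0.0506 and 0.0417 for the early and late G1 pairs. Of the members, 6 differed by more than 1.5-fold between the asynchronous libraries (Rfc2, Rfc5, Rpa2, Chaf1b, E2f8 and Brca1), 1 (Brca1) between the mitotic libraries, and 0 within either G1 state.

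Markers of other cells moved between the states as well. The 8 pluripotency markers summed to between 5139 and 6545 CPM in every library. The 14 feeder fibroblast markers summed to 4353 and 3933 CPM in asynchronous cells, 2193 and 1945 CPM in mitotic cells and 1758 to 1990 CPM in G1, and 11 of the 13 tested fell in mitotic against asynchronous cells. The collagen gene Col1a1 was at 509 and 554 CPM in asynchronous cells and at 5.96 to 21.5 CPM elsewhere. No feeder marker was at 0 in all libraries. The 12 macrophage markers summed to 85.6 and 86.2 CPM in asynchronous cells, 102 and 118 CPM in mitotic cells and 41.6 to 49.3 CPM in G1, and 9 of the 11 tested fell in early G1 against mitotic cells. Lyz2, a macrophage lysozyme, was at 28.7 and 30.8 CPM in mitotic cells and at 0 in both late G1 libraries. The 18 markers of G2 and M phase summed to between 3219 and 4118 CPM in all states, lowest in late G1. The part of these cells in the comparisons below was not tested, and in such bulk samples fewer cells of a type and less RNA per cell cannot be told apart.

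**Figure D1:**
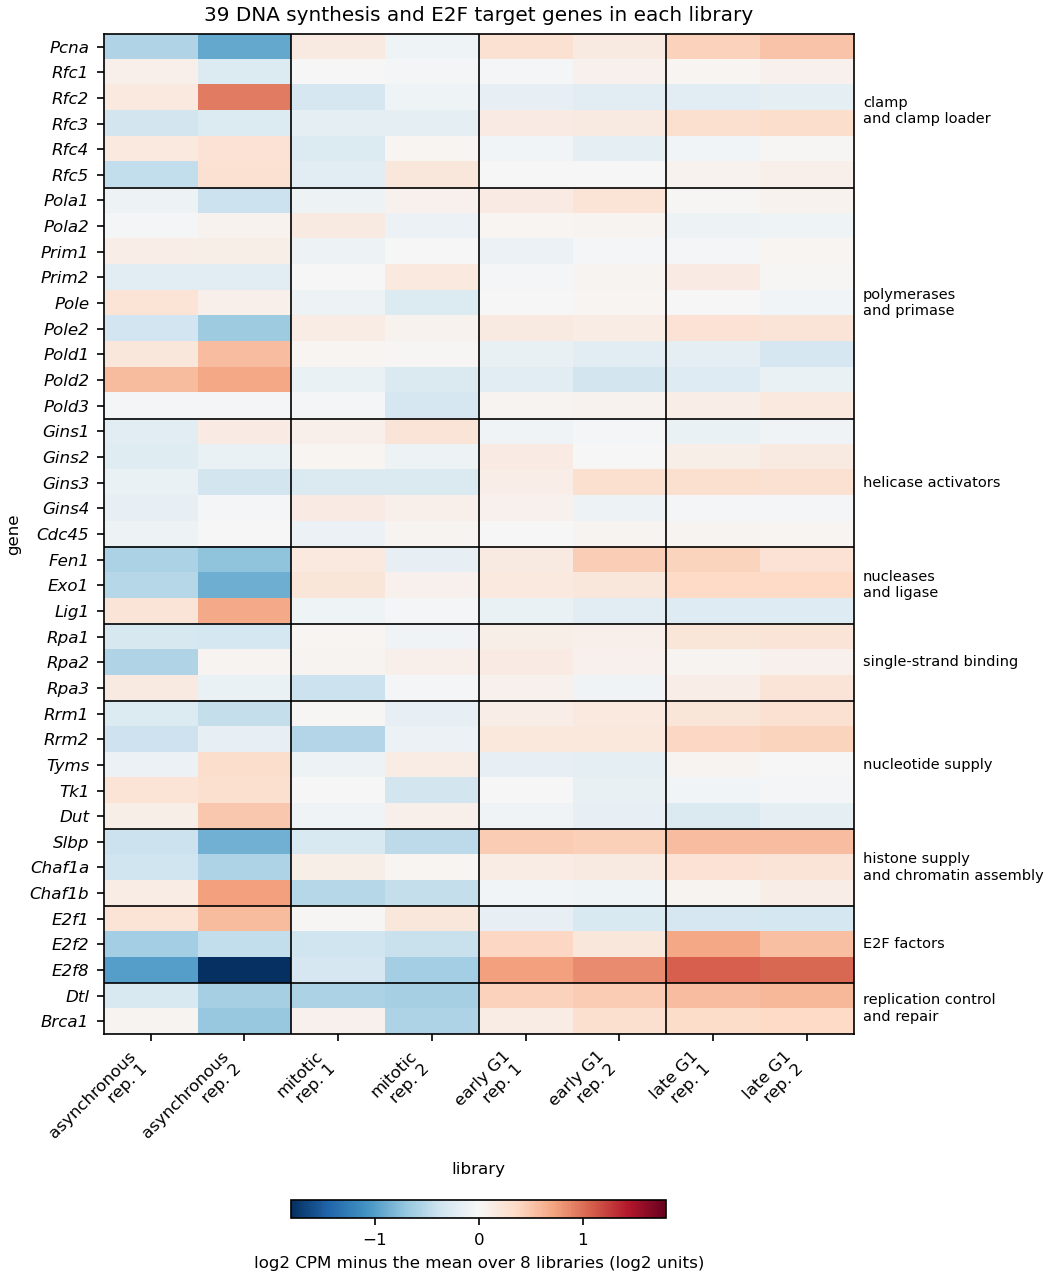
Level of each of the 39 genes (rows, by role) in each of the 8 libraries (columns), as log2 CPM minus the mean of the gene over the 8 libraries, where red is above and blue below that mean. The widest range is that of E2f8, whose mean in late G1 was 5.25 times its mean in asynchronous cells.

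Late G1 cells held the highest mean level for 21 of the 39 genes, asynchronous cells for 12, mitotic cells for 3 and early G1 cells for 3. The lowest mean lay in asynchronous cells for 20 genes, in mitotic cells for 10, in late G1 for 6 and in early G1 for 3. The heat map of all members shows this as a set of genes that is palest or blue on the left and red on the right, beside a smaller set with the opposite order. How often each state held the highest or lowest mean among all genes tested was not counted. The summed level of the 39 genes was 4972 and 5540 CPM in asynchronous cells, 4935 and 4927 CPM in mitotic cells, 5433 and 5384 CPM in early G1 and 5610 and 5682 CPM in late G1. A test for any difference between the 4 states (edgeR's quasi-likelihood test, adjusted p under 0.05 after Benjamini-Hochberg adjustment over the 19101 genes tested) called 20 members, 51.3%, against 48.5% of all genes tested. The count was 34 without replicate 1 of asynchronous and mitotic cells, where 15268 of 19725 genes were called. It was 10 and 11 without late G1 replicates 1 and 2, where 6098 of 20378 and 6067 of 20403 genes were called. The share of members called was thus near the share in the whole table.

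Mitotic against asynchronous cells split the genes evenly. Pcna, Pole2, Fen1, Exo1, Chaf1a and E2f8 were higher in mitotic cells and Rfc2, Pole, Pold2, Lig1, Tk1 and Chaf1b were lower, 6 in each direction (15.4% each), against 18.3% higher and 22.4% lower among all genes tested. The median log2 fold change was 0.06, with -0.05 over all genes tested. Under RLE scaling and under DESeq2 the split was 7 higher to 4 lower in place of 6 to 6. In a fit of these 2 states alone, 4 of the named genes kept their call and 8 lost it. That fit called 1560 genes higher and 2323 lower of the 18245 tested. Leaving out any 1 library, which leaves a state with 1 library, gave a median log2 fold change of the members from 0.02 to 0.09. The call count fell, among the members as in the whole table, without any 1 mitotic or G1 library. It rose in both without either asynchronous library. Without replicate 1 of both states it was 12 higher and 11 lower, in a fit that takes its spread from the G1 pairs alone and that called 5712 of 19725 genes higher and 5988 lower.

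Early G1 against mitotic cells is the step out of mitosis. Dtl, E2f8, Slbp and E2f2 were higher in early G1, 4 members (10.3%) against 3.21% of all genes tested. No member fell by edgeR or DESeq2, where 1.42% of all genes tested fell by edgeR. At an unadjusted p under 0.05 (edgeR) 0 of 39 members were lower, against 1907 of the 19101 genes tested. The median log2 fold change was 0.08 against -0.01 over all genes tested. With any 1 library left out, the median log2 fold change of the members ran from 0.06 to 0.11. Such a fit leaves a state with 1 library. The call count fell, among the members as in the whole table, without any 1 mitotic or G1 library. It rose in both without either asynchronous library, with E2f1 then called lower. Without replicate 1 of both asynchronous and mitotic cells it was 15 higher and 6 lower, where 4107 and 3811 of the 19725 genes tested were called.

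Late G1 against early G1 called no gene at all by edgeR, 0% of all genes tested in either direction, and so no member. None of the members had an unadjusted p under 0.05 (0 of 39) where 297 genes of the whole table were higher and 427 lower at that level, and DESeq2 called 27 genes and 0 members. All 39 log2 fold changes lay between -0.16 and 0.33, with 28 of 39 above 0, against 9509 of the 19101 genes tested. In a fit of these 4 libraries alone, which have the smallest spread, 5 members were higher in late G1 (Pcna, Exo1, Rrm2, E2f2 and E2f8) and 0 were lower, where 619 genes were higher and 874 lower of the 17696 tested. Both late libraries lay above both early ones for members such as E2f2, E2f8, Pcna, Rrm2, Rfc3, Rfc5, Prim1 and Pole2. They lay below for members such as Pola1, Pola2 and Pole. These are examples, as Dtl and Slbp also lay above and Lig1 and E2f1 below. The share of such genes was not counted among the members or in the whole table, so no rise is read from them.

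Late G1 against mitotic cells called the same 4 genes as early G1 against mitotic cells, with Rrm2 and Rfc3 added, 6 members (15.4%) against 5.43% of all genes tested. No member fell by edgeR or DESeq2, where 4.04% of all genes tested fell by edgeR. At an unadjusted p under 0.05 (edgeR) 1 member (E2f1) was lower, against 2409 of the 19101 genes tested. The median log2 fold change was 0.14 against -0.01 over all genes tested. The 2 comparisons share the mitotic libraries. The median log2 fold change of the members ran from 0.13 to 0.20 with any 1 library left out, which leaves a state with 1 library. The call count fell, among the members as in the whole table, without any 1 mitotic or G1 library. It rose in both without either asynchronous library, with E2f1 and Pold1 then called lower. Without replicate 1 of both asynchronous and mitotic cells it was 19 higher and 5 lower, where 4290 and 4235 of the 19725 genes tested were called.

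Late G1 against asynchronous cells held the most calls. Of the 39 genes 14 were higher in late G1 (35.9%) against 22.7% of all genes tested, and 6 were lower (15.4%) against 26% of all genes tested. The higher genes were Pcna, Rfc3, Pole2, Gins3, Fen1, Exo1, Rpa1, Rrm1, Rrm2, Slbp, Chaf1a, E2f2, E2f8 and Dtl, and the lower ones were Rfc2, Pold1, Pold2, Lig1, Dut and E2f1. The median log2 fold change was 0.18 against -0.03 over all genes tested. Each fit with 1 library left out leaves a state with 1 library, and the median log2 fold change of the members then ran from 0.16 to 0.25. The call count fell, among the members as in the whole table, without either late G1 library, more so for lower than for higher members. Without replicate 1 of both asynchronous and mitotic cells it was 21 higher and 12 lower, where 6742 and 6922 of the 19725 genes tested were called. In that fit all 42 called results of the 5 comparisons kept their direction. Its libraries are a part of those that gave the calls, so this is not an independent check.

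**Figure D2:**
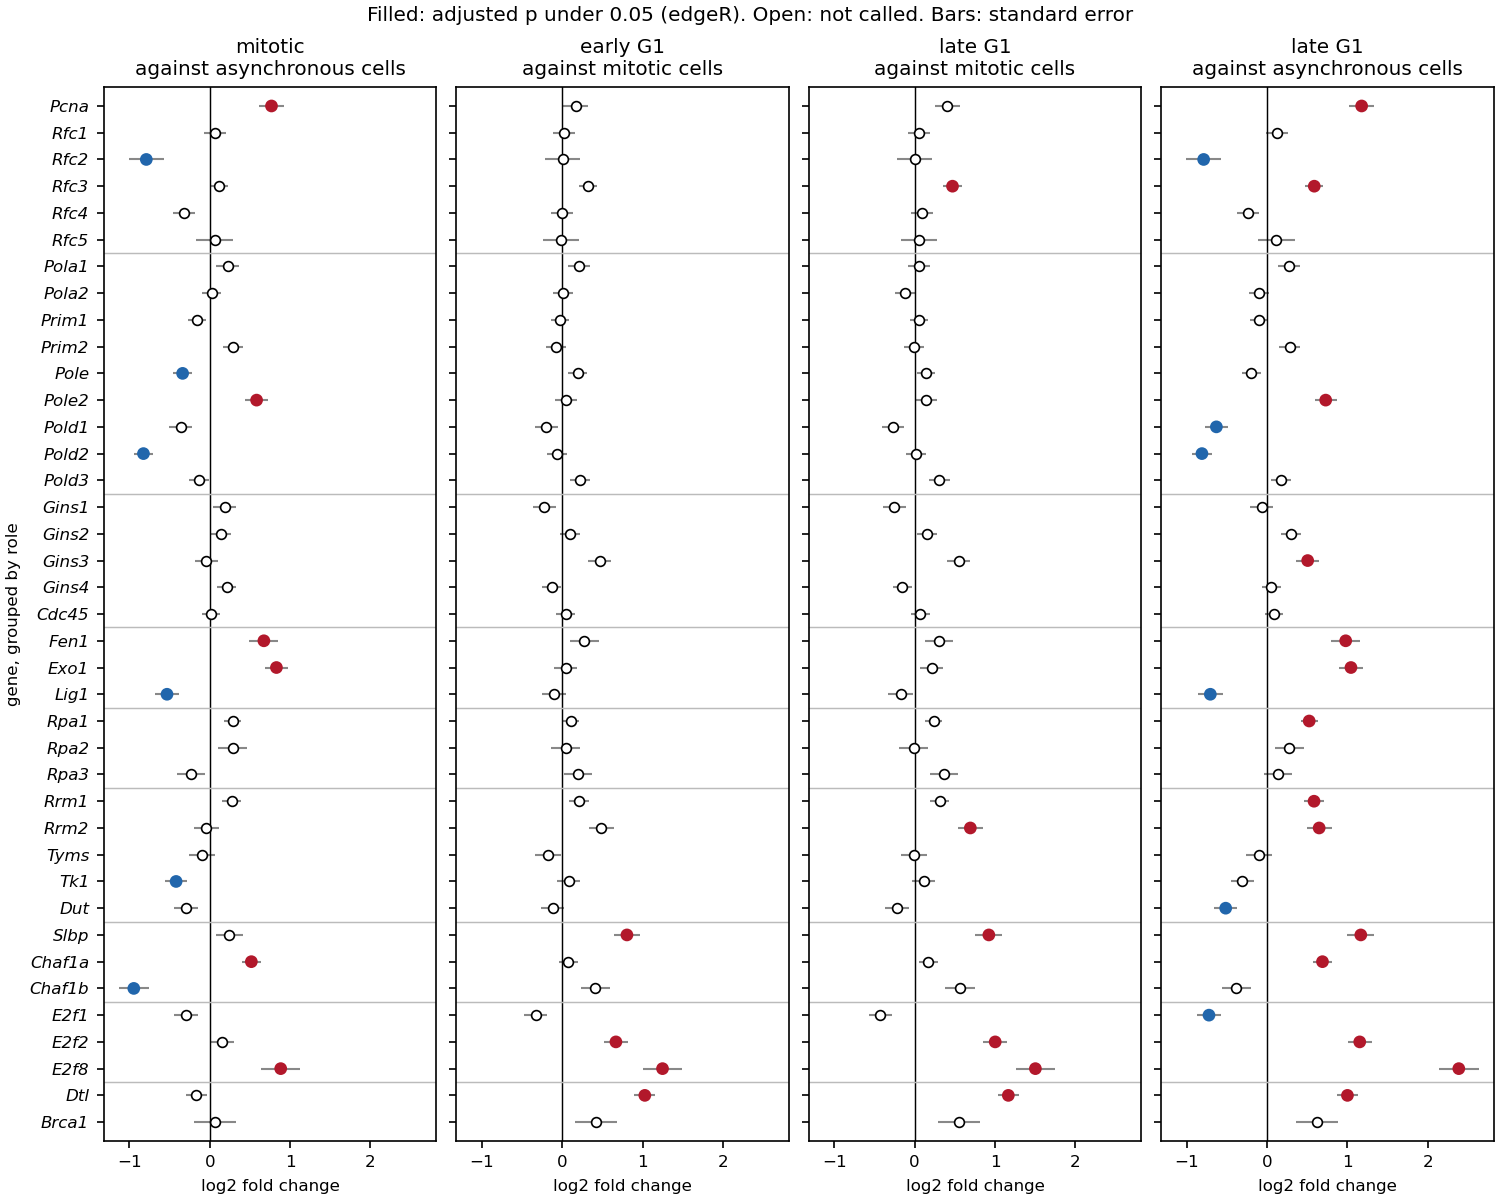
Log2 fold change of each gene (rows) in 4 comparisons, with bars of 1 standard error; filled points passed an adjusted p of 0.05 in edgeR (red higher, blue lower) and open points did not. Fold changes against asynchronous cells spread to both sides of 0, from -0.95 (Chaf1b, mitotic cells) to 2.39 (E2f8, late G1), and all called points against mitotic cells lie to the right of 0.

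The E2F factors held the largest rise of the set. E2f8, a repressor of E2F targets, was at 27.6 and 15.8 CPM in asynchronous cells, 44.5 and 35.8 CPM in mitotic cells, 91.9 and 99.1 CPM in early G1 and 116 and 112 CPM in late G1. Each state lay wholly above the one before. The level rose 1.84-fold from asynchronous to mitotic cells (log2 0.88 ± 0.24 SE, adjusted p = 0.0199, edgeR) and 2.38-fold from mitotic to early G1 cells (log2 1.25 ± 0.24, adjusted p = 0.0289, edgeR). Late G1 stood 5.23-fold above asynchronous cells (adjusted p = 0.000285, edgeR) and 2.83-fold above mitotic cells (adjusted p = 0.0108, edgeR; 1.21e-21 to 0.101 over 16 alternatives, lost without any 1 mitotic or late G1 library). The rise from mitotic to early G1 cells lost its call without any 1 mitotic, early G1 or late G1 library, with an adjusted p from 4.19e-19 to 0.221 over 16 alternative settings. The rise from asynchronous to mitotic cells lost its call without mitotic replicate 1 (0.118) and in a fit of those 2 states alone (0.0723), over a range from 7.51e-13 to 0.118.

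E2f2, an activating factor, was the least abundant member per length and followed the same order. It was at 12.3 and 13.8 CPM in asynchronous cells and 14.7 and 14.3 CPM in mitotic cells, a difference that did not pass the test (adjusted p = 0.455, edgeR). It was at 24.5 and 21.6 CPM in early G1 and 30.6 and 27.5 CPM in late G1, above all 4 earlier libraries. The rise into early G1 was 1.59-fold (log2 0.67 ± 0.15 SE, adjusted p = 0.0467, edgeR), and late G1 was 2.00-fold above mitotic cells (log2 1.00 ± 0.15, adjusted p = 0.00911, edgeR; 1.5e-09 to 0.114 over 16 alternatives, lost without any 1 mitotic or late G1 library). The early rise was close to the threshold: over 16 alternatives its adjusted p ran from 1.11e-05 to 0.313, and it was lost under RLE scaling (0.0502) and without any 1 of the mitotic or G1 libraries. E2f1, the other activating factor measured, went the other way. It was at 107 and 133 CPM in asynchronous cells, 91.3 and 104 CPM in mitotic cells, 81.3 and 74.4 CPM in early G1 and 72.9 and 72.4 CPM in late G1. Asynchronous libraries lay above all the others, and the fall to late G1 was 1.65-fold (log2 -0.72 ± 0.14, adjusted p = 0.00452, edgeR). The lower level in late G1 than in mitotic cells did not pass (adjusted p = 0.103), and it passed without asynchronous replicate 1 (0.00835) or 2 (0.00821) and without replicate 1 of both asynchronous and mitotic cells (8.25e-08), over a range from 8.25e-08 to 0.39 in 16 alternatives.

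**Figure D3:**
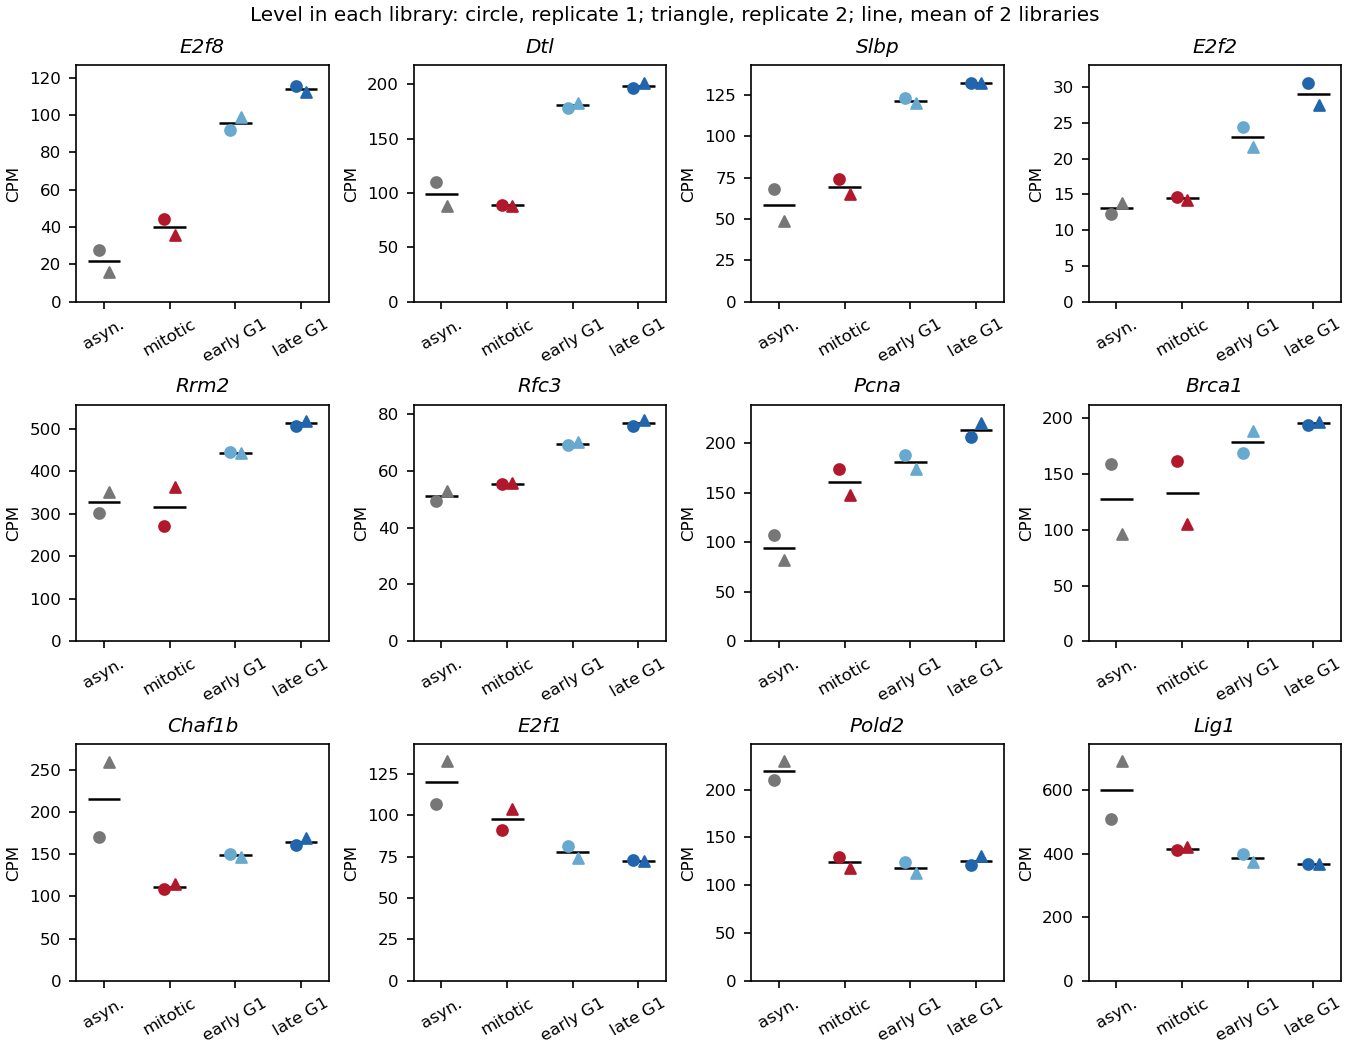
Level in CPM (vertical axis from 0) of 12 genes in each library of the 4 states; circles are replicate 1, triangles replicate 2 and the line is the mean of the 2 libraries. E2f8, Dtl, Slbp and E2f2 step up between mitotic and early G1 cells, whereas Pold2 and Lig1 step down between asynchronous and mitotic cells; Brca1 differs between replicates in both asynchronous and mitotic cells.

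Dtl rose between mitotic and early G1 cells. It encodes the substrate receptor of the CRL4 ubiquitin ligase, which works on chromatin-bound PCNA to destroy the licensing factor Cdt1 and other proteins. Its level was 110 and 88.4 CPM in asynchronous cells, 89.4 and 87.7 CPM in mitotic cells, 178 and 183 CPM in early G1 and 196 and 201 CPM in late G1. All 4 G1 libraries lay above all 4 others. The step was 2.04-fold (log2 1.03 ± 0.13 SE, adjusted p = 0.00789, edgeR) and late G1 stood 2.24-fold above mitotic cells (adjusted p = 0.00368, edgeR; 0.0566 and 0.0552 without late G1 replicates 1 and 2, 8.27e-19 to 0.0566 over 16 alternatives). Without either mitotic or either early G1 library the adjusted p of the step was 0.069 to 0.108, and over 16 alternatives it ran from 8.19e-17 to 0.108. Brca1, a repair gene of homologous recombination and an E2F target, had G1 levels of 168, 188, 194 and 197 CPM. Its levels elsewhere divided by replicate number, with 159 and 162 CPM in replicate 1 and 95.8 and 105 CPM in replicate 2 of asynchronous and mitotic cells. Early G1 was 1.34-fold above mitotic cells, which did not pass (log2 0.42 ± 0.26, adjusted p = 0.371, edgeR). With a term for replicate 1 of those 2 states the same difference was 0.79 on the log2 scale (adjusted p = 6.17e-04, edgeR), and without both libraries 0.77. Both settings set aside the deviation of replicate 1, and the second leaves each of those states with 1 library, so neither establishes a rise.

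Among the genes of histone supply and chromatin assembly, Slbp and Chaf1b had different low points. Slbp, whose protein binds the stem-loop of replication-dependent histone mRNAs, was at 68.4 and 49.0 CPM in asynchronous cells, 74.2 and 64.8 CPM in mitotic cells, 123 and 120 CPM in early G1 and 132 CPM in both late G1 libraries. The G1 libraries again lay above all others. The step from mitotic to early G1 cells was 1.75-fold (log2 0.81 ± 0.17 SE, adjusted p = 0.0376, edgeR), with a range from 3.96e-14 to 0.256 over 16 alternatives and no call without any 1 mitotic or G1 library. Late G1 stood 2.25-fold above asynchronous cells (adjusted p = 0.00106, edgeR). Chaf1a and Chaf1b, subunits of the chromatin assembly factor CAF-1 that places new histones behind the fork, parted. Chaf1a rose 1.43-fold from 111 and 96.2 CPM in asynchronous cells to 152 and 144 CPM in mitotic cells (adjusted p = 0.00975, edgeR; 0.0531 without mitotic replicate 1, 1.21e-08 to 0.0801 over 16 alternatives) and was at 154 to 168 CPM in G1. Chaf1b fell 1.93-fold from 170 and 260 CPM to 108 and 115 CPM (log2 -0.95 ± 0.19, adjusted p = 0.00524, edgeR), and this call held under all 16 alternatives. In G1 it was at 150, 147, 161 and 169 CPM, above both mitotic libraries and below both asynchronous ones. The difference between late G1 and mitotic cells (log2 0.56 ± 0.18) did not pass (adjusted p = 0.0949, edgeR).

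Among the 5 nucleotide supply genes, Rrm1 and Rrm2 were higher and Dut was lower in late G1 than in asynchronous cells. Rrm2, the regulated subunit of the reductase that makes deoxynucleotides, was at 303 and 351 CPM in asynchronous cells, 270 and 363 CPM in mitotic cells, 444 and 443 CPM in early G1 and 507 and 517 CPM in late G1. Both G1 states lay above every other library. Late G1 was 1.62-fold above mitotic cells (log2 0.69 ± 0.16 SE, adjusted p = 0.0316, edgeR), which was lost without mitotic replicate 1 or any 1 G1 library over a range from 1.35e-08 to 0.208. Rrm1, the large subunit, was at 192 and 168 CPM in asynchronous cells and 265 and 276 CPM in late G1, 1.5-fold higher (adjusted p = 0.00534, edgeR; 0.051 without late G1 replicate 2, 1.19e-12 to 0.051 over 16 alternatives). Dut, which removes dUTP, went from 277 and 360 CPM to 215 and 230 CPM between the same states, 1.43-fold lower (adjusted p = 0.0202, edgeR; 0.143 and 0.0878 without late G1 replicates 1 and 2, 2.63e-13 to 0.143 over 16 alternatives). Tk1, the thymidine salvage kinase, fell 1.34-fold from 72.9 and 74.7 CPM in asynchronous cells to 61.5 and 48.9 CPM in mitotic cells (adjusted p = 0.0448, edgeR), a call lost in 9 of 16 alternatives, with adjusted p up to 0.238. Tyms, thymidylate synthase, had means between 51.9 and 62.8 CPM and was called in no comparison.

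In the clamp and its loader, only Pcna and Rfc3 of 6 genes were higher in any state than in asynchronous or mitotic cells by the test, and Rfc2 was lower. Pcna, the sliding clamp that holds polymerases on DNA, was at 107 and 81.9 CPM in asynchronous cells, 174 and 147 CPM in mitotic cells, 188 and 174 CPM in early G1 and 206 and 221 CPM in late G1. The asynchronous libraries lay below all others. Pcna rose 1.70-fold from asynchronous to mitotic cells (log2 0.77 ± 0.16 SE, adjusted p = 0.0064, edgeR) and stood 2.26-fold higher in late G1 (adjusted p = 0.000803, edgeR), both under all 16 alternatives. Rfc3 stepped up later. It was at 49.5 and 52.7 CPM in asynchronous cells, 55.1 and 55.6 CPM in mitotic cells, 68.9 and 69.9 CPM in early G1 and 75.7 and 77.8 CPM in late G1, and late G1 was 1.39-fold above mitotic cells (log2 0.47 ± 0.11, adjusted p = 0.039, edgeR; 3.83e-06 to 0.268 over 16 alternatives, lost without any 1 mitotic or G1 library). Rfc2 was at 174 and 294 CPM in the asynchronous libraries, which differed by more than any other pair of its replicates, and at 125 to 146 CPM in the other 6. It fell 1.73-fold from asynchronous to mitotic cells (log2 -0.79 ± 0.22, adjusted p = 0.0224, edgeR), lost without either mitotic library (0.138 and 0.0647) over a range from 6.78e-16 to 0.138. Rfc1, Rfc4 and Rfc5 were called in no comparison, with log2 fold changes between -0.32 and 0.12.

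Of the 9 polymerase and primase genes, Pole2 rose and Pole and Pold2 fell in mitotic against asynchronous cells, and Pold1 fell in late G1. Pole2, an accessory subunit of the leading-strand polymerase epsilon, rose 1.5-fold from 40.7 and 32.9 CPM in asynchronous cells to 56.6 and 53.7 CPM in mitotic cells (adjusted p = 0.0118, edgeR; 0.0602 without mitotic replicate 1, 3.77e-08 to 0.0817 over 16 alternatives) and was at 56.2 to 61.9 CPM in G1. Pole, its catalytic subunit, went from 223 and 201 CPM to 177 and 158 CPM, 1.26-fold lower (adjusted p = 0.0489, edgeR); that call was lost in 12 of 16 alternatives, with adjusted p from 0.00019 to 0.281. Pold2, a subunit of the lagging-strand polymerase delta, was at 210 and 230 CPM in asynchronous cells and 112 to 130 CPM in the other 6 libraries, 1.77-fold lower in mitotic cells (log2 -0.83 ± 0.12 SE, adjusted p = 0.00164, edgeR) and 1.75-fold lower in late G1 (adjusted p = 0.00133, edgeR). Both Pold2 calls held under all 16 alternatives. Pold1, the catalytic subunit of delta, was at 292 and 376 CPM in asynchronous cells and 225 and 206 CPM in late G1, 1.55-fold lower (adjusted p = 0.0075, edgeR; 0.0773 without late G1 replicate 2, 2.47e-15 to 0.0773 over 16 alternatives). Pold3 had means between 88.1 and 109 CPM and was not called. The polymerase alpha and primase genes, which lay down the first RNA and DNA of each strand, were called in no comparison: Pola1, Pola2, Prim1 and Prim2 had log2 fold changes between -0.16 and 0.29.

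Of the 5 helicase activators, 1 was called in any comparison. The GINS complex and Cdc45 bind the MCM ring to form the active helicase. Gins1, Gins2, Gins4 and Cdc45 were called in no comparison, and Cdc45 ran only from 94.9 to 106 CPM over the 8 libraries. Gins3 was the exception, at 24.1 and 20.8 CPM in asynchronous cells, 21.8 and 21.9 CPM in mitotic cells, 28.4 and 31.9 CPM in early G1 and 32.0 and 31.8 CPM in late G1. Its G1 libraries lay above the others, and late G1 was 1.42-fold above asynchronous cells (log2 0.51 ± 0.14 SE, adjusted p = 0.0197, edgeR; lost without either late G1 library, 0.104 and 0.103, over a range from 3.01e-06 to 0.104).

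The genes that finish Okazaki fragments split into rising nucleases and a falling ligase. Exo1, a 5′ exonuclease of replication and mismatch repair, was at 70.3 and 54.5 CPM in asynchronous cells, 116 and 106 CPM in mitotic cells, 114 and 115 CPM in early G1 and 129 CPM in both late G1 libraries. It rose 1.78-fold from asynchronous to mitotic cells (log2 0.83 ± 0.14 SE, adjusted p = 0.00314, edgeR), and this held under all 16 alternatives. Fen1, the flap endonuclease, went from 11.7 and 10.4 CPM to 19.6 and 15.7 CPM, 1.60-fold higher (adjusted p = 0.019, edgeR; lost without mitotic replicate 1, 0.106, over a range from 0.00163 to 0.106), and was at 19.3 to 23.4 CPM in G1. Lig1, the ligase that seals the fragments, was at 510 and 694 CPM in asynchronous cells, 411 and 422 CPM in mitotic cells, 399 and 375 CPM in early G1 and 368 and 370 CPM in late G1. The asynchronous libraries lay above all others, and Lig1 was 1.45-fold lower in mitotic cells (adjusted p = 0.0239, edgeR) and 1.63-fold lower in late G1 (adjusted p = 0.00617, edgeR). The first of these calls was lost without any 1 mitotic or G1 library (9.98e-12 to 0.141 over 16 alternatives), and the second without late G1 replicate 1 (0.0547) or 2 (0.0514).

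Of the RPA genes, whose protein coats single-stranded DNA, only Rpa1 passed the test. Rpa1 was at 303 and 296 CPM in asynchronous cells, 377 and 354 CPM in mitotic cells, 397 and 392 CPM in early G1 and 429 and 433 CPM in late G1, with each state above the one before. Late G1 was 1.44-fold above asynchronous cells (log2 0.52 ± 0.11 SE, adjusted p = 0.00453, edgeR), under all 16 alternatives. Rpa2 was at 146 CPM in asynchronous replicate 1 and at 219 to 235 CPM in the other 7 libraries, and Rpa3 ran from 18.4 to 28.1 CPM. Neither was called.

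**Figure D4:**
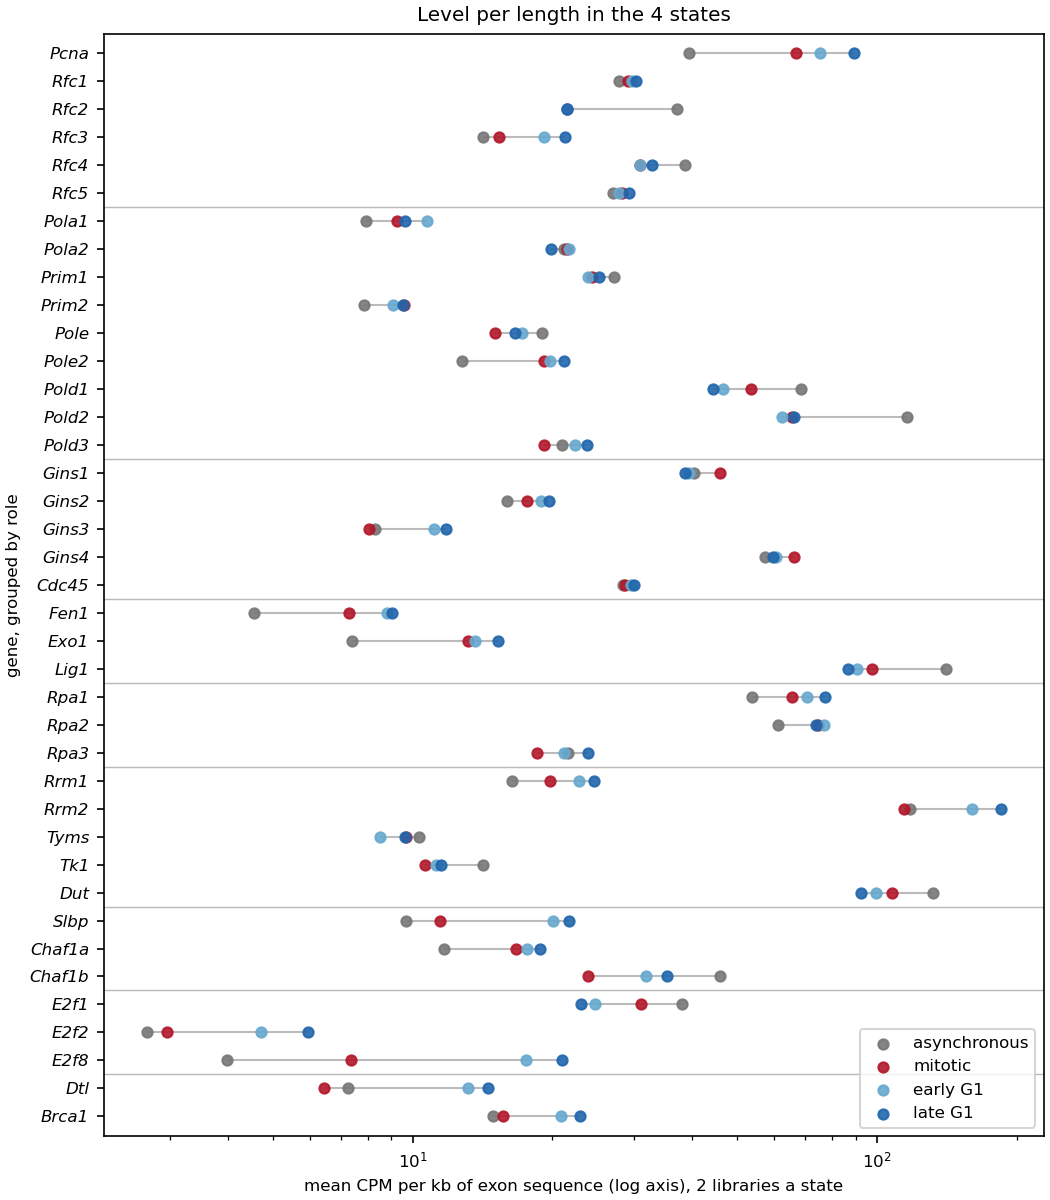
Mean CPM per kb of exon sequence (log axis) of each gene in the 4 states, each point the mean of 2 libraries. In late G1 the levels run from 5.94 (E2f2) to 185 CPM per kb (Rrm2), and the distance between the points of a row is the change of that gene between states.

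Compared per length of exon sequence, which allows levels of different genes to be set side by side, the genes spanned a wide range. In asynchronous cells Lig1 (141 ± 30.5 CPM per kb), Dut (132 ± 24.3), Rrm2 (118 ± 12.3) and Pold2 (116 ± 7.36) were the most abundant, and E2f2 (2.67 ± 0.23), E2f8 (3.99 ± 1.53) and Fen1 (4.56 ± 0.36) the least. The first 4 differed by less than the SD of Lig1 and have no order beyond it. In late G1 Rrm2 was highest at 185 ± 2.58 CPM per kb, followed by Dut (92.4 ± 4.40), Pcna (89.0 ± 4.15) and Lig1 (86.4 ± 0.20). Neighbours from Dut to Lig1 differed by less than the SD of Dut or Pcna. Reads placed on Pcna-ps2, a processed copy of Pcna, are left out of the Pcna level. In late G1 Pcna-ps2 averaged 302.2 CPM against 213.5 CPM for Pcna, so the rank of Pcna in any state is not settled. E2f8 moved from 3.99 to 20.9 CPM per kb, close to E2f1 (23.0 ± 0.11), which had been at 38.0 in asynchronous cells. The lengths are unions of all annotated exons, so a gene with long unused exons has its level understated. Fen1 shares 78.8% of its exon length with another gene, so its low rank also depends on how shared reads were counted.

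Other genes of replication and its control gave a setting for the members. Outside the set, 88 such genes were listed, in origin licensing and firing, fork factors, nucleotide supply, E2F and cyclin E regulators, chromatin copying, and repair and checkpoints. All 88 were tested, and 53 (60.2%) differed between any of the 4 states, against 48.5% of all genes tested. In mitotic against asynchronous cells 27 were higher (30.7%) and 13 lower (14.8%), with a median log2 fold change of 0.21. Over all genes tested 18.3% were higher and 22.4% lower, with a median of -0.05. In early G1 against mitotic cells 9 were higher (10.2%) and 0 lower (edgeR, 2 at an unadjusted p under 0.05), with a median of 0.16. All genes tested had 3.21% higher and 1.42% lower. In late G1 against mitotic cells 14 were higher (15.9%) and 0 lower (6 unadjusted), with a median of 0.19, against 5.43% and 4.04% of all genes tested. In late G1 against asynchronous cells 47 were higher (53.4%) and 7 lower (7.95%), with a median of 0.44. The shares over all genes tested were 22.7% and 26%, with a median of -0.03. Between late and early G1 0 were called in either direction (1 higher and 0 lower unadjusted).

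Fbxo5, which encodes the APC/C inhibitor Emi1, went from 89.0 and 67.8 CPM in asynchronous cells to 12.3 and 12.7 CPM in mitotic cells (log2 -2.65 ± 0.16 SE, adjusted p = 4.97e-05, edgeR) and rose to 90.6 and 87.8 CPM in early G1 (log2 2.84 ± 0.16, adjusted p = 0.000725). Ccne2, which encodes cyclin E2, rose from 11.3 and 10.2 CPM in mitotic cells to 39.1 and 38.8 CPM in early G1 and 48.2 and 51.1 CPM in late G1 (log2 2.21 ± 0.22 for late G1 against mitotic cells, adjusted p = 0.00259, edgeR). Top2a, the topoisomerase of replicated chromosomes, fell from 1329 and 1037 CPM in asynchronous cells to 140 and 121 CPM in mitotic cells and was at 341 to 406 CPM in G1. Cdkn1a, which encodes the inhibitor p21, was at 173 and 273 CPM in asynchronous cells, 48.0 and 70.0 CPM in mitotic cells and 138 to 188 CPM in G1. E2f7, the other atypical factor, was 4.07-fold and the licensing factor Cdc6 3.40-fold higher in late G1 than in asynchronous cells (adjusted p = 0.000364 and 0.000183, edgeR). Ticrr, Dbf4 and Recql4, all of origin firing, were 2.18-fold to 2.36-fold higher in mitotic than in asynchronous cells. Pold4, the smallest subunit of polymerase delta, went from 16.4 and 20.3 CPM in asynchronous cells to 3.28 and 2.77 CPM in late G1, and Cdkn1b, which encodes the inhibitor p27, from 58.3 and 37.5 CPM to 16.5 and 17.9 CPM, both lower by the test (adjusted p = 0.000186 and 0.00106, edgeR).

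Some of the values carry a limit from the gene models. The strand setting of the counting is not given in the sources used here, and 14 members share exon sequence with another gene. If strand was not used, reads of the partner can enter their counts, or reads in the shared part can be left out. The overlap was largest for Fen1 (78.8% of its exon length, with Gm10143), Gins2 (67.3%, with Gse1) and Chaf1a (52.5%, with Ubxn6), each on the opposite strand. Gm10143 summed to 198 counts over the 8 libraries against 3287 for Fen1, Gse1 to 9975 against 13416 for Gins2, and Ubxn6 to 2443 against 26177 for Chaf1a. Rfc4 shared 12.7% of its exon length with Eif4a2 on the opposite strand, which held 82612 counts against 9246 for Rfc4. Pcna has a processed copy, Pcna-ps2, which held 48270 counts against 29558 for Pcna itself, so reads that fit both can have been placed on either. Pcna-ps2 averaged 200.2 CPM in asynchronous, 284.1 in mitotic, 273.5 in early G1 and 302.2 CPM in late G1 cells, and it too was higher in mitotic than in asynchronous cells (log2 0.50 ± 0.13 SE, adjusted p = 0.0169, edgeR). Tyms-ps held 1060 counts against 10508 for Tyms.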

How the data were processed

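The authors deposited one table of read counts, in whole numbers and without normalisation, that lists 54838 Ensembl genes in 8 libraries. Libraries came from a stranded poly(A) kit and were sequenced from one end over 50 bases, per the labels' protocols. The RNA protocol in the labels names asynchronous cells only. TopHat2, SAMtools, HTSeq and mm10 are named without versions or roles, per the submitters' processing notes. For the annotation release and the strand setting, nothing is given in the sources used here. Of the identifiers 99.9% matched symbols of GENCODE M21, and exon lengths, overlaps and coordinates (GRCm38, 1-based) are from the same annotation. Promoter sequences are from RefSeq (GRCm38.p6).

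Libraries were grouped by title. The fit used edgeR 4.0.16 under R 4.3.3. Low counts were removed with filterByExpr (minimum count 10, 19101 genes left), and counts were scaled by TMM and tested with the quasi-likelihood test on all 8 libraries (4 residual degrees of freedom, robust dispersion, no replicate block). Tests were two-sided, with Benjamini-Hochberg adjustment over all genes tested within a comparison and a threshold of 0.05. The SE of a log2 fold change is its size divided by the square root of F. A floor of 3 counts is 0.116 to 0.152 CPM, for counting error only. DESeq2 1.42.0 and 15 other alternatives were run. The main fit did not pair libraries by replicate number, although same-numbered asynchronous and mitotic libraries deviated together (r = 0.621). Members and gene lists were chosen with earlier results of these data known. All members may be named; of the other 88 pathway genes, up to 3 called rises and 3 called falls per comparison with the largest log2 fold change and an average log2 CPM of at least 2 were named.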

Additional observations from a re-analysis of the deposited data

How the results depend on the processing

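A term for replicate 1 of asynchronous and mitotic cells gave 11 higher and 10 lower in mitotic against asynchronous cells. Of the 19101 genes tested, 5219 were then higher and 5798 lower. The same fit gave 11 and 3 in early G1 against mitotic cells, where 3242 and 2640 of all genes were called. In late G1 against mitotic cells it gave 15 and 4, where 3488 and 3105 of all genes were called. Leaving both of those libraries out gave 12 and 11, 15 and 6, and 19 and 5 in the same comparisons, with 4 and 0 in late against early G1, 21 and 12 in late G1 against asynchronous cells, and 34 for any of the 4 states. That fit has 2 residual degrees of freedom and takes the lone libraries to vary like the G1 pairs. Fits of only the 2 states compared gave 2 and 2 in mitotic against asynchronous cells, where 1560 and 2323 of 18245 genes were called. They gave 5 and 0 in late against early G1, where 619 and 874 of 17696 genes were called. In late G1 against mitotic cells they gave 10 and 1, where 2275 and 1684 of 17813 genes were called. With single libraries left out, the higher and lower counts ran from 2 to 10 and from 2 to 9 in mitotic against asynchronous cells, from 0 to 8 and from 0 to 1 in early G1 against mitotic cells, from 0 to 12 and from 0 to 2 in late G1 against mitotic cells, and from 11 to 17 and from 2 to 7 in late G1 against asynchronous cells, with 10 to 24 for any state. A state left with 1 library is then assumed to vary like the others.

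The samples share replicate numbers, but same-numbered libraries clearly deviated together in only 1 of 6 pairs of states (r = 0.621 for asynchronous with mitotic). The others ran from -0.365 to 0.0572. The lowest was asynchronous with early G1, whose deviations were thus opposed. A replicate block gave 6 higher and 5 lower in mitotic against asynchronous cells, where 3554 and 4335 of the 19101 genes tested were called. It gave 3 and 0 in early G1 against mitotic cells, where 570 and 233 of all genes were called. In late G1 against mitotic cells it gave 5 and 0, where 1025 and 719 of all genes were called. Of the 42 called results of the members over 5 comparisons 25 lost the call under at least 1 of 16 alternatives and 0 changed sign, whereas 47 of the 153 uncalled results changed sign under at least 1. Rfc5 in late G1 against asynchronous cells was uncalled at 0.11 on the log2 scale and turned to -0.20 (adjusted p = 0.00841) without replicate 1 of asynchronous and mitotic cells; its adjusted p in the reported fit was 0.704. The cause was not tested.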

Other observations

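The roles within the set had different summed levels, given here as values without a test. The 9 polymerase and primase genes summed to 1261 and 1331 CPM in asynchronous cells and to 1105 and 1093 CPM in late G1. The 3 RPA genes summed to 475.9 and 538.4 CPM and to 673.7 and 685.0 CPM in the same states, and the 5 nucleotide supply genes to 898.4 and 1025 CPM and to 1106 and 1141 CPM. The 5 helicase activators summed to between 311.0 and 357.7 CPM over the 8 libraries. Pcna together with Pcna-ps2 averaged 294.6 CPM in asynchronous, 445.0 in mitotic, 454.4 in early G1 and 515.7 CPM in late G1 cells.

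Among the other 88 pathway genes, the calls in late G1 against asynchronous cells differed in number by group. Over all genes tested 22.7% were higher and 26% lower. Of 23 genes of origin licensing and firing 14 were higher (60.9%) and 0 lower by edgeR (0 lower at an unadjusted p under 0.05 as well). Of 20 E2F, retinoblastoma and cyclin E regulators 14 were higher (70%) and 2 lower (10%). Of 17 fork factors 6 were higher (35.3%) and 5 lower (29.4%). Of 7 chromatin copying genes 4 (57.1%), of 8 further nucleotide supply genes 3 (37.5%), and of 13 repair and checkpoint genes 6 (46.2%) were higher. In these 3 groups 0 genes were lower by edgeR or at an unadjusted p under 0.05. Differences between these groups were not tested.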
